A study of Homo sapiens with 12 samples.

Results

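Phenobarbital (PB) and CITCO, a pair of drugs that both activate the human constitutive androstane receptor (CAR), were compared with each other in wild-type HepaRG cells. The comparison rests on 4 of the 12 RNA sequencing libraries of the series, 2 from cells given PB and 2 from cells given CITCO. It covers 15792 of the 15822 loci of the deposited expression table, which are those with at least 1 CPM in at least 2 of the 12 libraries. HepaRG is a line from a human hepatoma that can form cells like hepatocytes beside cells like those of bile ducts. The groups used are wild-type (WT) cells given PB, WT cells given CITCO and WT cells given the solvent DMSO, with the same treatments in cells labelled as a knockout of human CAR (KO), at 2 libraries per group. Nothing in the labels states whether the duplicates are separate cultures; the p-values therefore reflect duplicate spread alone, and that spread may be technical. The sources used here give no dose, exposure time or culture stage, nor how the CAR gene was disrupted or whether the KO line is 1 clone, so the drugs are compared at unstated doses.

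CAR, encoded by NR1I3, is a nuclear receptor of hepatocytes that binds DNA together with RXRA and switches on genes for drug oxidation, conjugation and export. CITCO is a synthetic agonist that binds the receptor, whereas PB activates it without binding, by acting on the signalling that holds CAR in the cytoplasm. The related pregnane X receptor (PXR, encoded by NR1I2) recognises overlapping DNA elements and is also activated by PB in human cells. CYP2B6 is the classic target of CAR and CYP3A4 the classic target of PXR, although each receptor can act on both.

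WT libraries held 49258123 to 66453415 reads, recovered from the deposited values, and libraries labelled KO held 54917960 to 65329045 by the same calculation. The median absolute difference between duplicates was 0.11 on the log2 scale with PB and 0.071 with CITCO. Of the defining markers of hepatocytes, 6 of 7 were in the table, and they summed to 155200 and 148200 CPM with PB, against 137700 CPM in both libraries with CITCO and 154900 and 150100 CPM with DMSO. Most of this sum was ALB, albumin. Of the biliary markers, 4 of 5 were in the table and summed to 377 and 418 CPM with PB, against 463 and 467 CPM with CITCO and 405 and 457 CPM with DMSO; nearly all of this was KRT19, while KRT7 was at about 1 CPM or lower in each WT library. Mesenchymal markers (4 of 6 in the table) summed to 89.8 and 93.4 CPM with PB and 88.3 and 90.6 CPM with CITCO. Endothelial markers (2 of 4 in the table) summed to 82.6 and 81.8 CPM with PB and 103 and 102 CPM with CITCO, nearly all of it KDR; the macrophage markers were not analysed here. Fewer cells of a type and less RNA per cell cannot be told apart in these bulk libraries, and the part of these marker differences in the results below was not tested. NR1I3 itself was at 16.2 and 15.6 CPM with PB and 9.63 and 10.7 CPM with CITCO in the cells labelled KO, close to WT levels, but a count over the whole gene checks nothing where the position of the disruption is unknown.

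PB and CITCO gave transcriptomes that differed at 992 of 15792 loci (6.28%) at an adjusted p under 0.05. Of these, 419 loci (2.65% of those tested) were higher with PB and 573 (3.63%) were lower. Most differences were small: the median absolute log2 difference of the called loci was 0.30, and a change of 2-fold or more was seen in 5 of those higher and 9 of those lower. The median over all loci was -0.0026. None of the 992 had overlapping groups, but 47.7% of all loci tested did not overlap either. The balance of directions depended on the scaling. With every library rescaled to the same total, 250 loci were higher and 947 lower, and the median of all loci moved by -0.046. The count was 525 without PB replicate 1, 1215 without PB replicate 2, 377 without CITCO replicate 1 and 394 without CITCO replicate 2.

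**Figure D1:**
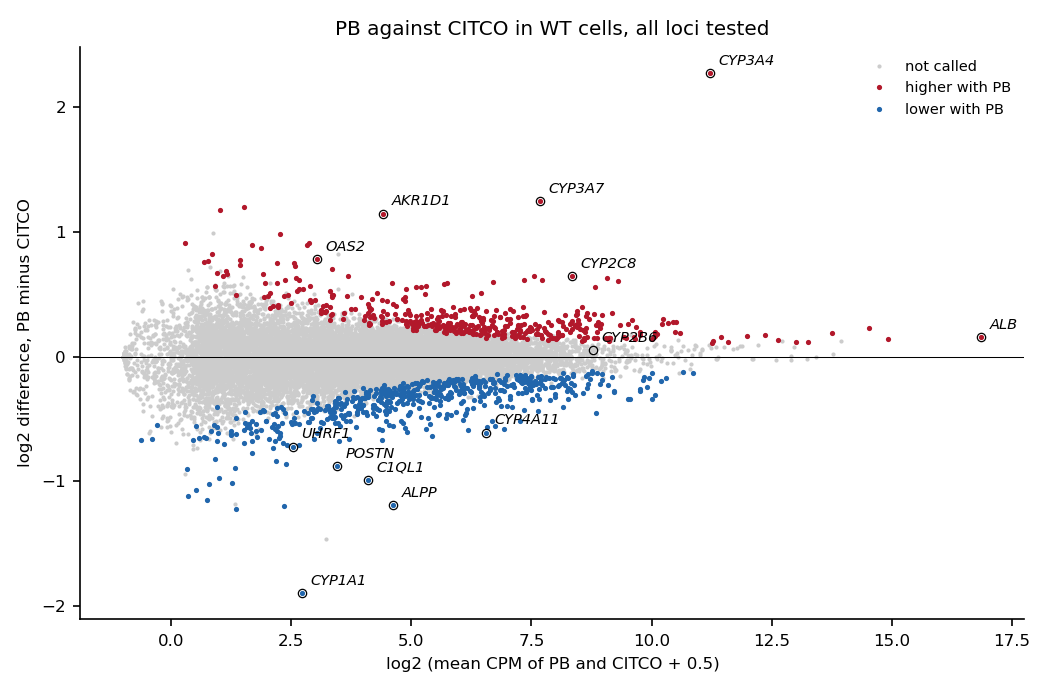
Log2 difference of PB minus CITCO (y axis) against the mean level of both groups (x axis, log2 of mean CPM + 0.5) for the 15792 loci tested in WT cells. Red and blue points are the 419 loci called higher and the 573 called lower with PB, grey points are not called, and CYP3A4 at 2.27 and CYP1A1 at -1.90 lie at the extremes while CYP2B6 lies near 0.

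The largest difference was in CYP3A4, the main drug-oxidising cytochrome P450 of adult liver. CYP3A4 had 4030 and 3826 CPM with PB, against 818 and 807 CPM with CITCO and 242 and 232 CPM with DMSO. Both PB libraries stood far above both CITCO libraries, which in turn stood above DMSO. The level with PB was 4.83 times that with CITCO (log2 difference 2.27 ± 0.035 (SE), adjusted p = 3.79e-18). CYP3A7, the fetal member of the family, had 298 and 277 CPM with PB, against 126 and 116 CPM with CITCO and 67.7 and 66 CPM with DMSO. It was 2.38 times as high with PB as with CITCO (log2 difference 1.25 ± 0.078 (SE), adjusted p = 2.09e-08). CYP3A5, a member of the same cluster that many people lack as a functional enzyme, had 542 and 529 CPM with PB, against 362 and 365 CPM with CITCO and 329 and 319.6 CPM with DMSO. It was also higher with PB (log2 difference 0.56 ± 0.043 (SE), adjusted p = 2.46e-07), and its CITCO libraries lay close above DMSO. Reads of these similar genes can be exchanged between them in counting, so the smaller values are less certain than that of CYP3A4.

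Promoters of these 3 genes of 1 cluster, CYP3A4 being the gene with the largest difference, are shown because CAR and PXR act on CYP3A4 through an everted repeat with a 6-base spacer (ER6, searched on both strands as the half-sites TGAACT and AGGTCA with any 6 bases between them). The sequences are the 250 bases before each start site from RefSeq (GRCh38.p14), written 5′ to 3′ on the gene's strand, with the ER6 element, or the window closest to it in CYP3A7, in capitals. CYP3A4 lies on the minus strand at chr7:99784185-99784434, CYP3A5 on the minus strand at chr7:99679997-99680246, and CYP3A7 on the minus strand at chr7:99735197-99735446.
CYP3A4: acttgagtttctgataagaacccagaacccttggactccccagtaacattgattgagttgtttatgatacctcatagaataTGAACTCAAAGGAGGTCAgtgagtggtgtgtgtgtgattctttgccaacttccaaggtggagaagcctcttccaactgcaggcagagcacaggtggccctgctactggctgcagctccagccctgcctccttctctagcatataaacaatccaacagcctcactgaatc
CYP3A5: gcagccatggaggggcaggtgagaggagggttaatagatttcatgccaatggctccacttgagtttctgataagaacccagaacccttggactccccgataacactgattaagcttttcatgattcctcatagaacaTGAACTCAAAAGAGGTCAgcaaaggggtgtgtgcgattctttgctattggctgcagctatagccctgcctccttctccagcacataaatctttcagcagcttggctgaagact
CYP3A7: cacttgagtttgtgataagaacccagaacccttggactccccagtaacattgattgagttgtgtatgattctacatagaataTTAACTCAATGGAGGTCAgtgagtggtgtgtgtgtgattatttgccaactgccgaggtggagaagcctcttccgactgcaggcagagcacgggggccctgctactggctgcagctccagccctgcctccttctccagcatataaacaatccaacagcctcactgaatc
The letters searched were in 3 of 27305 promoters of the table (0.011%), 2 of them CYP3A4 and CYP3A5. The element lay 169 to 152 bases before the start of CYP3A4 and 113 to 96 bases before that of CYP3A5. Counted from 1 at the 5′ end of the CYP3A4 element, the CYP3A5 element carries G11A, in the spacer. The closest window of CYP3A7, 168 to 151 bases before its start, carries G2T in the first half-site and A10T in the spacer. A match describes these letters only; binding was not measured.

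Other P450 genes induced through CAR and PXR were mostly higher with PB, but CYP2B6 was not. Of 11 measured genes of this list, 9 rose, with a median log2 difference of 0.61 against -0.0026 over all loci; the count was 7 or 8 when 1 library of the comparison was left out. CYP2C8, which oxidises paclitaxel and some glitazones, had 415 and 383 CPM with PB, against 257 and 252 CPM with CITCO and 137 and 128 CPM with DMSO (log2 difference 0.65 ± 0.048 (SE), adjusted p = 1.54e-07). CYP2C18, a relative of little known role in liver, had 200.2 and 191 CPM with PB, against 129 and 126 CPM with CITCO and 88.8 and 86 CPM with DMSO (log2 difference 0.61 ± 0.042 (SE), adjusted p = 6.03e-08). In both genes the groups were well separated, with CITCO between PB and DMSO. CYP2A6, the nicotine oxidase, had 151 and 163 CPM with PB and 137 and 142 CPM with CITCO; its call (log2 0.17, adjusted p = 0.0381) was lost without any 1 library tried other than WT PB replicate 1. The log2 difference was 0.12 without PB replicate 2, 0.14 without CITCO replicate 1 and 0.20 without CITCO replicate 2 (adjusted p = 0.192, 0.281 and 0.108), and without 1 of the KO-labelled libraries given PB or CITCO the adjusted p was 0.0536 to 0.0668.

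CYP2B6 had 442 and 447 CPM with PB, against 435 and 424 CPM with CITCO and 35.2 and 37.1 CPM with DMSO. Both drugs stood far above DMSO, by 3.60 on the log2 scale for PB and 3.55 for CITCO. The difference of PB minus CITCO was 0.05, with a 95% interval of -0.072 to 0.17 and adjusted p = 0.698. The pseudogene CYP2B7P, whose reads are hard to tell from those of CYP2B6, had 52.3 and 48.3 CPM with PB and 42 and 39.5 CPM with CITCO (log2 0.30, adjusted p = 0.0542). For CYP3A4, the same values relative to DMSO were 4.05 with PB and 1.78 with CITCO. Values relative to DMSO share the same 2 DMSO libraries and are given side by side only.

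**Figure D2:**
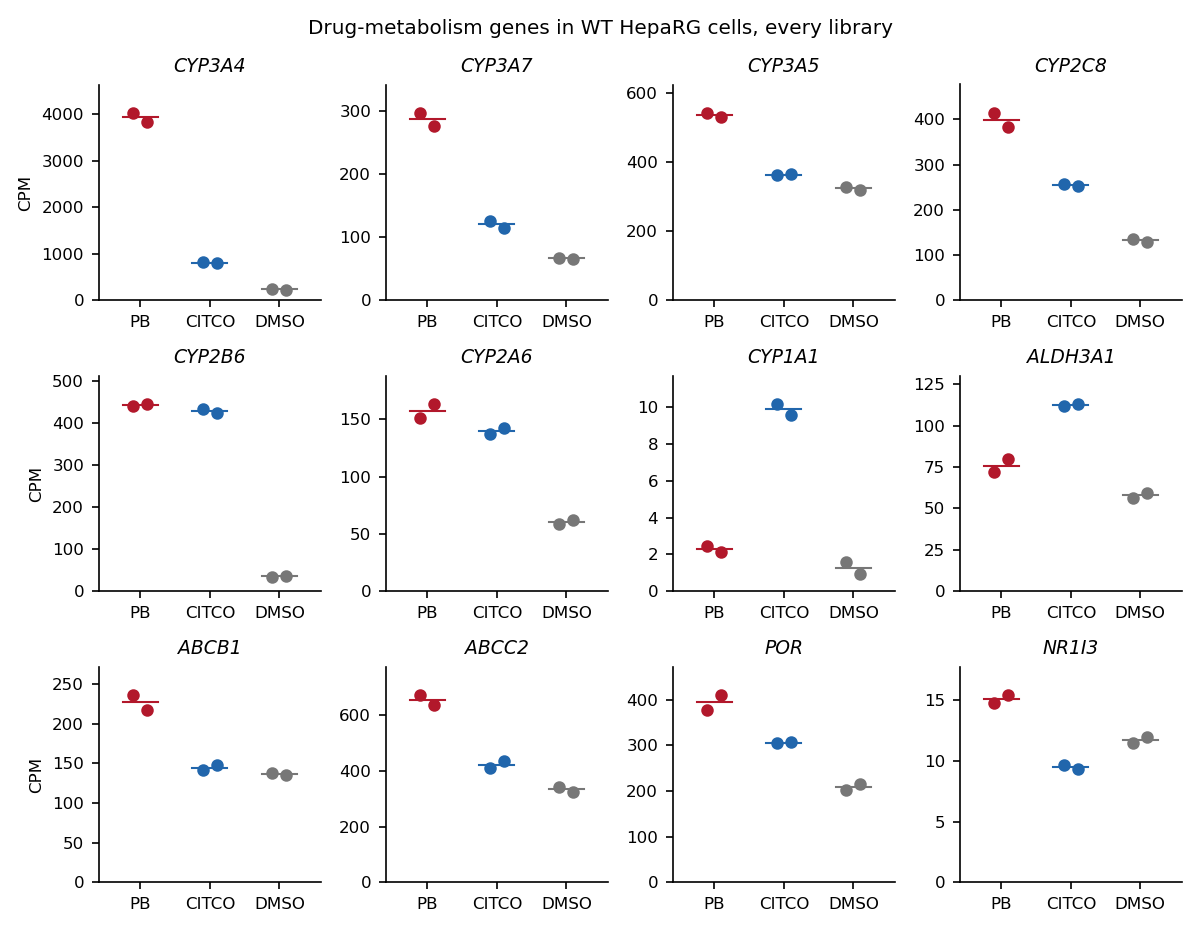
CPM of 12 drug-metabolism genes (y axis, from 0) in each WT library given PB, CITCO or DMSO (x axis); points are libraries and lines are means of 2. CYP3A4, CYP3A7, CYP2C8, ABCB1 and ABCC2 are higher with PB than with CITCO, CYP2B6 shows little separation of the drugs, and CYP1A1 and ALDH3A1 are higher with CITCO.

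Targets of the aryl hydrocarbon receptor (AhR), a sensor of planar aromatic compounds, were lower in part. Of 5 measured targets, 3 were lower with PB, with a list median of -0.56. The count was 1 with a filter of 1 CPM in at least 8 libraries, which left out CYP1A1 and CYP1A2. CYP1A1, which oxidises polycyclic hydrocarbons, had 2.48 and 2.11 CPM with PB, against 10.2 and 9.57 CPM with CITCO and 1.58 and 0.944 CPM with DMSO. The level with CITCO was 4.3 times that with PB (log2 difference -1.90 ± 0.22 (SE), adjusted p = 3.31e-05). Both PB libraries lay above both DMSO libraries, but at these low levels that difference was not called (log2 0.68, adjusted p = 0.0807). The CITCO libraries lay 2.58 above DMSO (adjusted p = 9.01e-07). ALDH3A1, an aldehyde dehydrogenase, had 71.9 and 79.8 CPM with PB, against 112 and 113 CPM with CITCO and 56.1 and 59.6 CPM with DMSO (log2 difference -0.56 ± 0.057 (SE), adjusted p = 8.28e-06), with both drugs above DMSO. CYP1A2, the caffeine oxidase, was near the detection filter at 0.888 and 1.3 CPM with PB and 3.14 and 2.3 CPM with CITCO; its log2 difference of -1.01 (adjusted p = 0.0211) lost its call without PB replicate 1, CITCO replicate 1 or CITCO replicate 2 (adjusted p = 0.183, 0.22 and 0.0515). AHR, the receptor gene, differed by -0.043 (adjusted p = 0.775), NQO1 by -0.26 (adjusted p = 0.571) and TIPARP by 0.011 (adjusted p = 0.96). CYP1B1 was not analysed here. The core letters of the AhR element (TNGCGTG, both strands) were absent from the windows searched before the starts of the 4 AhR targets matched. They were in 4.53% of all promoters. No match says only that these letters are not in the window searched.

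The machinery that supplies P450 enzymes with electrons and heme was higher with PB in part. Of 10 genes, 4 rose and 1 fell. CYB5A, cytochrome b5, which passes electrons to CYP3A4, had 768 and 747 CPM with PB, against 493 and 504 CPM with CITCO and 382 and 369.7 CPM with DMSO (log2 difference 0.60 ± 0.035 (SE), adjusted p = 1.34e-08). POR, the reductase that serves all microsomal P450 enzymes, had 377 and 411 CPM with PB, against 304 and 308 CPM with CITCO and 202 and 215 CPM with DMSO (log2 difference 0.36 ± 0.046 (SE), adjusted p = 7.43e-05). ALAS1, the rate-limiting enzyme of heme synthesis, had 96.5 and 94.2 CPM with PB, against 76.6 and 77.1 CPM with CITCO and 69.3 and 69.6 CPM with DMSO (log2 difference 0.31 ± 0.053 (SE), adjusted p = 0.00125), and the next enzyme of that pathway, ALAD, rose by 0.27 (adjusted p = 0.00284; 0.0583 with a constant prior variance). CYB5R3, the reductase of cytochrome b5, was the member that fell, with 167 and 181 CPM with PB and 208 and 222 CPM with CITCO (log2 difference -0.31 ± 0.049 (SE), adjusted p = 0.000721). The later heme enzymes UROS, UROD, PPOX and FECH were not called, with log2 differences between -0.17 and 0.04.

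Of 17 enzymes of conjugation (phase II), 8 rose and 1 fell, with a median of 0.20; 2 fell without PB replicate 2. GSTA2, a glutathione transferase close in sequence to GSTA1, had 402 and 369 CPM with PB and 328 and 286 CPM with CITCO (log2 difference 0.33 ± 0.055 (SE), adjusted p = 0.000971). SULT2A1, the sulfotransferase of steroids and bile acids, had 466 and 456 CPM with PB and 378 and 368 CPM with CITCO (log2 difference 0.30 ± 0.037 (SE), adjusted p = 3.96e-05). UGT2B4, a glucuronosyltransferase, rose by 0.29 (adjusted p = 0.000268), and UGT1A1, which conjugates bilirubin, by 0.20 (adjusted p = 0.00102); the UGT1A genes share exons, so counts can be exchanged between them. NNMT, the nicotinamide methyltransferase, fell by 0.24 on the log2 scale (adjusted p = 0.000564). With a constant prior variance just 2 of the 17 enzymes were called higher. The calls of GSTA2 and UGT1A1 were among those lost (adjusted p = 0.0591 and 0.0801).

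Of 12 efflux transporters, 4 rose and 1 fell, with 2 falling without PB replicate 2 and 0 without CITCO replicate 2. ABCC2, the canalicular exporter of conjugates, had 674 and 636 CPM with PB, against 410.1 and 434 CPM with CITCO and 344 and 325 CPM with DMSO (log2 difference 0.63 ± 0.04 (SE), adjusted p = 2.64e-08). ABCB1, P-glycoprotein, had 237 and 218 CPM with PB, against 142 and 148 CPM with CITCO and 138 and 136 CPM with DMSO (log2 difference 0.65 ± 0.045 (SE), adjusted p = 6.03e-08). PB stood above CITCO in both genes; CITCO was 0.082 from DMSO in ABCB1 (adjusted p = 0.374) and 0.34 above it in ABCC2 (adjusted p = 7.24e-05). SLC47A1, the exporter of organic cations, had 123 and 122 CPM with PB and 93.8 and 94.9 CPM with CITCO (log2 difference 0.37 ± 0.044 (SE), adjusted p = 3.78e-05). Of 8 uptake transporters, 5 rose: SLC16A9, a carnitine carrier, had 9.7 and 8.39 CPM with PB and 4.51 and 4.61 CPM with CITCO (log2 difference 0.91 ± 0.11 (SE), adjusted p = 3.31e-05), and SLC10A1, the sodium-coupled bile acid carrier, had 45.4 and 47.9 CPM with PB and 31.3 and 31.3 CPM with CITCO (log2 difference 0.57 ± 0.085 (SE), adjusted p = 0.000393). SLCO2B1, an organic anion carrier, rose by 0.29 (adjusted p = 0.000825; 0.0521 with a constant prior variance).

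Among 24 nuclear receptors and liver transcription factors, 2 rose and the other 22 were not called. One was NR1I3, the CAR gene itself, with 14.8 and 15.5 CPM with PB, against 9.7 and 9.33 CPM with CITCO and 11.5 and 12 CPM with DMSO (log2 difference 0.64 ± 0.087 (SE), adjusted p = 0.000148). PB was 0.36 above DMSO (adjusted p = 0.0181) and CITCO -0.29 from it (adjusted p = 0.104). The other was PPARA, the receptor for fatty acids, with 85 and 86 CPM with PB and 67.5 and 68.5 CPM with CITCO (log2 difference 0.33 ± 0.051 (SE), adjusted p = 0.000567). NR1I2, the PXR gene, had 30.3 and 31.6 CPM with PB and 29.5 and 27.9 CPM with CITCO (log2 0.11, 95% interval -0.026 to 0.24, adjusted p = 0.378). RXRA, the shared partner, had 116 and 128 CPM with PB and 125 and 127 CPM with CITCO (log2 -0.049, adjusted p = 0.698).

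Bile acid and lipid genes of the hepatocyte were also higher with PB in part. Of 16 genes of bile acid synthesis and its control, 6 rose, a count of 4 without either CITCO library. AKR1D1, the steroid 5β-reductase of the pathway, had 29.4 and 28.3 CPM with PB, against 13.5 and 12.1 CPM with CITCO and 13.4 and 11.7 CPM with DMSO (log2 difference 1.15 ± 0.079 (SE), adjusted p = 6.03e-08); CITCO lay at the DMSO level and PB at 2.26 times CITCO. CYP7A1, the rate-limiting enzyme of bile acid synthesis, had 92.8 and 86 CPM with PB, against 65 and 62.2 CPM with CITCO and 78.5 and 68.8 CPM with DMSO (log2 difference 0.49 ± 0.068 (SE), adjusted p = 0.000187), with PB above both and CITCO minus DMSO at -0.21 (adjusted p = 0.132). SCP2, a sterol carrier with thiolase activity, had 672 and 625 CPM with PB and 504 and 511 CPM with CITCO (log2 difference 0.35 ± 0.038 (SE), adjusted p = 1.75e-05). Of 23 genes of cholesterol synthesis, 12 rose with a median of 0.15; the count was 6 without PB replicate 1, 10 without PB replicate 2, 5 without CITCO replicate 1, 3 without CITCO replicate 2 and 7 with total scaling. INSIG1, a sterol-regulated brake on the pathway, had 296 and 283 CPM with PB and 235 and 238 CPM with CITCO (log2 difference 0.29 ± 0.042 (SE), adjusted p = 0.000269).

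CYP4A11 and CYP4A22, the neighbouring fatty acid omega-hydroxylases, were lower with PB. CYP4A11 had 74.7 and 72.3 CPM with PB, against 109 and 116 CPM with CITCO and 118 and 121 CPM with DMSO (log2 difference -0.61 ± 0.051 (SE), adjusted p = 7.63e-07). CYP4A22 had 32.2 and 34.3 CPM with PB, against 50.3 and 53.7 CPM with CITCO and 52.1 and 52.3 CPM with DMSO (log2 difference -0.64 ± 0.059 (SE), adjusted p = 2.83e-06). In both genes the CITCO libraries lay near DMSO and the PB libraries below both; the 2 genes are near-identical, so their reads may be shared. Of the 20 genes of fatty acid oxidation and PPARA targets, 4 rose and 5 fell; 2 rose without CITCO replicate 2, and 2 fell without PB replicate 1, CITCO replicate 1 or CITCO replicate 2. The members that rose included EHHADH, a peroxisomal enzyme (0.23, adjusted p = 0.00151), and FABP1, the liver fatty acid carrier (0.22, adjusted p = 0.00347); both calls were lost with a constant prior variance (adjusted p = 0.062 and 0.1002).

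Of 18 hepatocyte secreted proteins, 10 rose with a median of 0.12; the count was 5 without either CITCO library, and of the 6 hepatocyte markers measured, ALB, TTR and APOB passed the test and APOA1, SERPINA1 and HNF4A did not (log2 0.069, 0.019 and 0.045, adjusted p = 0.493, 0.802 and 0.624). The ALB call was lost with a constant prior variance (adjusted p = 0.165). It was also lost when just the 4 compared libraries were fitted (adjusted p = 0.132) and when the 6 WT libraries were fitted (adjusted p = 0.103). APOB was close to the threshold (adjusted p = 0.0468). KNG1, kininogen, had 1333 and 1278 CPM with PB and 1084 and 1100 CPM with CITCO (log2 difference 0.26 ± 0.032 (SE), adjusted p = 5.71e-05). SERPINC1, antithrombin, had 359 and 356 CPM with PB and 292 and 295 CPM with CITCO (log2 difference 0.28 ± 0.041 (SE), adjusted p = 0.000241). Of 14 genes of the urea cycle and amino acid catabolism, 8 rose and 1 fell, with 5, 8, 2 and 3 rising and 0, 0, 0 and 1 falling without PB replicate 1, PB replicate 2, CITCO replicate 1 and CITCO replicate 2. GLS2, the liver glutaminase, had 60.03 and 62.5 CPM with PB and 41.6 and 40.05 CPM with CITCO (log2 difference 0.58 ± 0.067 (SE), adjusted p = 2.93e-05), and OTC, ornithine transcarbamylase, had 102 and 96.6 CPM with PB and 81.5 and 78.3 CPM with CITCO (log2 difference 0.31 ± 0.05 (SE), adjusted p = 0.000731). Of 12 mitochondrially encoded transcripts, 6 rose, a count of 2 without PB replicate 1, 1 without CITCO replicate 1 and 3 with total scaling. Among 15 acute phase genes 4 rose by at most 0.15 and 1 fell; with total scaling, or without either CITCO library, none of the 4 was called, and 2 were called without PB replicate 1. The gene that fell was CRP, C-reactive protein, with 14.9 and 14.7 CPM with PB, against 18.9 and 18.4 CPM with CITCO and 19.6 and 18.2 CPM with DMSO (log2 difference -0.32 ± 0.043 (SE), adjusted p = 0.000128). That call was lost with edgeR (adjusted p = 0.0622), when just the 4 compared libraries were fitted (adjusted p = 0.0787) and when the 6 WT libraries were fitted (adjusted p = 0.086).

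**Figure D3:**
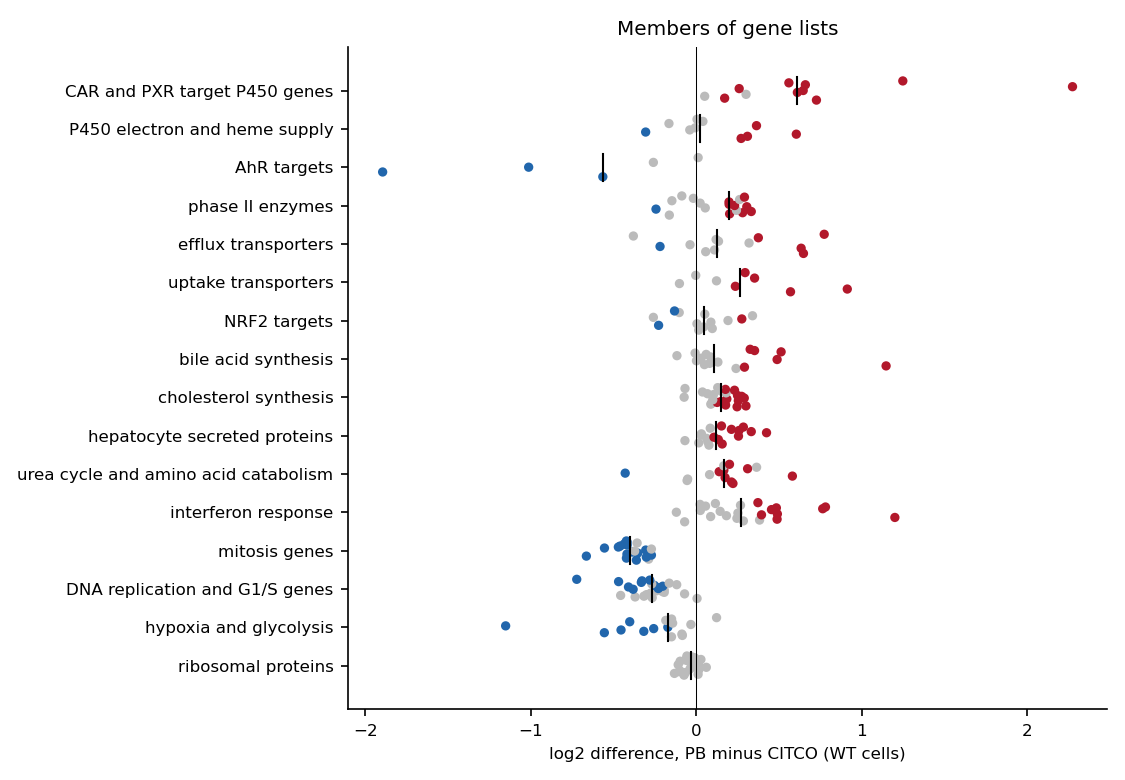
Log2 difference of PB minus CITCO in WT cells (x axis) for the measured members of 16 gene lists (y axis). Each point is a gene, red where called higher with PB, blue where called lower and grey where not called, and the black bar is the list median, which is 0.61 for the P450 genes, -0.56 for the AhR targets and -0.40 for the mitosis genes.

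Most mitosis genes were lower with PB than with CITCO. Of 20 mitosis genes, 16 fell, with a median of -0.40, and all 20 had values below 0, against 3.63% of all loci called lower. Of 26 genes of DNA replication and the G1/S step, 11 fell, with a median of -0.27, and 25 lay below 0. MKI67, the proliferation marker Ki-67, had 44.1 and 44.6 CPM with PB, against 60.6 and 61.8 CPM with CITCO and 50.01 and 46.5 CPM with DMSO (log2 difference -0.46 ± 0.048 (SE), adjusted p = 1.38e-05). BUB1B, a spindle checkpoint kinase, had 9.23 and 9.97 CPM with PB, against 15.8 and 15.2 CPM with CITCO and 12.8 and 10.8 CPM with DMSO (log2 difference -0.66 ± 0.088 (SE), adjusted p = 0.00012). TOP2A, the topoisomerase of dividing cells, had 64.6 and 56.8 CPM with PB, against 80.6 and 81.8 CPM with CITCO and 68.2 and 66 CPM with DMSO (log2 difference -0.42 ± 0.056 (SE), adjusted p = 0.00012). In these 3 genes the CITCO libraries stood above both DMSO libraries. CITCO minus DMSO was 0.34 for MKI67 (adjusted p = 0.000461), 0.38 for BUB1B (adjusted p = 0.0285) and 0.51 for the mitotic cyclin CCNB1 (adjusted p = 0.000774), while PB minus DMSO was -0.12, -0.28 and 0.086 (adjusted p = 0.184, 0.0671 and 0.605).

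RRM2, the inducible subunit of ribonucleotide reductase, had 39.9 and 38.2 CPM with PB, against 53.3 and 55.2 CPM with CITCO and 47.5 and 42.5 CPM with DMSO (log2 difference -0.47 ± 0.062 (SE), adjusted p = 0.000121). MCM5 and MCM2, subunits of the replicative helicase, differed by -0.41 (adjusted p = 0.000825) and -0.38 (adjusted p = 0.00142). UHRF1, which maintains DNA methylation at replication, had 4.09 and 3.64 CPM with PB, against 7.17 and 6.25 CPM with CITCO and 4.26 and 4.36 CPM with DMSO (log2 difference -0.72 ± 0.12 (SE), adjusted p = 0.000707). The count of mitosis genes that fell was 11 without PB replicate 1, 13 without PB replicate 2, 8 without CITCO replicate 1, 9 without CITCO replicate 2 and 17 with total scaling. For replication genes the counts were 7, 11, 6, 6 and 14 in the same order. With edgeR 8 of the mitosis genes fell, with DESeq2 11 and with a constant prior variance 9. When just the 4 compared libraries were fitted 8 fell, and when the 6 WT libraries were fitted 7. For replication genes these counts were 8, 9, 6, 7 and 7. The share of dividing cells was not measured.

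UHRF1 is shown as the replication gene with the largest difference, with its match to the E2F element (TTTCCCGC, both strands), here on the minus strand 14 to 7 bases before the start, in capitals. The 250 bases before its start are from RefSeq (GRCh38.p14), plus strand, chr19:4909251-4909500.
UHRF1: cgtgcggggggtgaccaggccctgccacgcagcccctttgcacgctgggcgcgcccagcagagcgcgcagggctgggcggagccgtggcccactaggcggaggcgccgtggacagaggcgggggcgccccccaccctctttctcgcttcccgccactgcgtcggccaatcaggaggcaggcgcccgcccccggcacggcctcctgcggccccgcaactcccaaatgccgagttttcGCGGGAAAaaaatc
These letters were in the 250-base windows of 7 of 22 replication genes matched in the promoter table (31.8%). The share was 1.42% over all promoters and 2.13% over the loci tested and matched. The letters were in none of the windows of the 16 mitosis genes matched. A second form, TTTGGCGC, was in 3 of the 22 replication genes (13.6%) and in 0.553% of all promoters. Among all loci called lower with PB, 15 of 402 matched (3.73%) held TTTCCCGC, and among those called higher 3 of 304 (0.987%).

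Of 23 measured interferon-induced genes, 9 rose with PB relative to CITCO and 14 were not called, with a median of 0.27. OAS2, an antiviral sensor of double-stranded RNA, had 10.3 and 9.45 CPM with PB, against 5.82 and 5.28 CPM with CITCO and 8.16 and 8.1 CPM with DMSO (log2 difference 0.78 ± 0.092 (SE), adjusted p = 3.45e-05). IFI44L had 3.72 and 3.21 CPM with PB, against 1.05 and 1.42 CPM with CITCO and 3.06 and 2.12 CPM with DMSO (log2 difference 1.20 ± 0.16 (SE), adjusted p = 0.000145). In both genes the PB libraries stood above the CITCO libraries, and the CITCO libraries lay below DMSO (log2 -0.51, adjusted p = 0.0039 for OAS2 and log2 -0.82, adjusted p = 0.00953 for IFI44L). PB minus DMSO was 0.26 for OAS2 (adjusted p = 0.107) and 0.38 for IFI44L (adjusted p = 0.212). ISG15, a ubiquitin-like protein of the same response, differed by 0.14 (adjusted p = 0.642). The count of 9 was 4 without PB replicate 1, 8 without PB replicate 2 and 4 without either CITCO library.

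**Figure D4:**
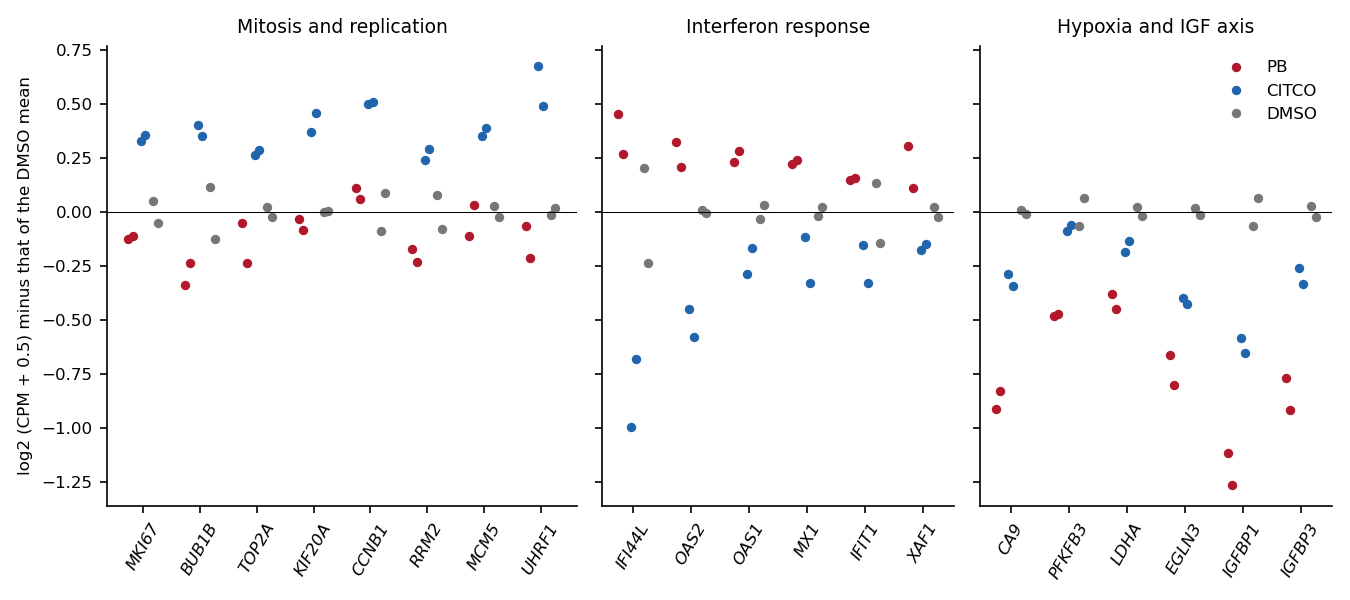
Level of cell division, interferon-induced and hypoxia or IGF-axis genes (x axis) in each WT library, as log2 (CPM + 0.5) minus that of the DMSO mean (y axis). Points are libraries given PB, CITCO or DMSO; for MKI67 and BUB1B the CITCO points lie highest, for OAS2 and IFI44L they lie lowest, and for CA9, IGFBP1 and IGFBP3 the PB points lie lowest.

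Some genes induced by low oxygen, and a pair of binding proteins of the insulin-like growth factor (IGF) axis, were lower with PB. Of 15 hypoxia and glycolysis genes, 7 fell, with a median of -0.17; the count was 5 or 6 when 1 library of the comparison was left out and 9 with total scaling. CA9, a carbonic anhydrase and a marker of hypoxia, had 83.8 and 89.1 CPM with PB, against 129.9 and 125 CPM with CITCO and 159.6 and 158 CPM with DMSO (log2 difference -0.56 ± 0.046 (SE), adjusted p = 6.43e-07). PFKFB3, an activator of glycolysis, had 37.7 and 37.9 CPM with PB, against 49.7 and 50.5 CPM with CITCO and 50.4 and 55.3 CPM with DMSO (log2 difference -0.40 ± 0.054 (SE), adjusted p = 0.000126). EGLN3, an oxygen sensor, differed by -0.32 (adjusted p = 0.000902) and LDHA, lactate dehydrogenase, by -0.26 (adjusted p = 0.000142). VEGFA, a classic hypoxia target, was not called, with 122 and 129.8 CPM with PB and 115 and 116 CPM with CITCO (log2 0.12, adjusted p = 0.15). Of 10 genes of the IGF axis, 2 fell and 8 were not called. IGFBP1, a secreted IGF-binding protein repressed by insulin, had 6.7 and 6 CPM with PB, against 9.93 and 9.44 CPM with CITCO and 14.4 and 15.8 CPM with DMSO (log2 difference -0.57 ± 0.086 (SE), adjusted p = 0.000411), and IGFBP3 had 19.3 and 17.3 CPM with PB, against 27.6 and 26.2 CPM with CITCO and 33.8 and 32.6 CPM with DMSO (log2 difference -0.55 ± 0.06 (SE), adjusted p = 1.96e-05). In CA9, IGFBP1 and IGFBP3 both drugs lay below DMSO and PB lay further below.

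Of 17 genes of the ATF4 and unfolded protein responses, 5 fell, 3 rose and 9 were not called, with a median of 0.045; 1 rose without either CITCO library. CALR, a chaperone of the endoplasmic reticulum, had 533 and 543 CPM with PB and 659 and 652 CPM with CITCO (log2 difference -0.28 ± 0.032 (SE), adjusted p = 2.3e-05), and PDIA4, a disulfide isomerase, had 262 and 284 CPM with PB and 329 and 333 CPM with CITCO (log2 difference -0.28 ± 0.041 (SE), adjusted p = 0.00032). HSPA5, the chaperone BiP, differed by -0.23 (adjusted p = 0.000387), while the stress factors DDIT3 and ATF4 differed by 0.045 and 0.11 (adjusted p = 0.821 and 0.18).

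Of 13 measured targets of NRF2, the regulator of oxidative stress genes, 1 rose and 2 fell. AKR1B10, an aldo-keto reductase, had 1167 and 1126 CPM with PB, against 1132 and 1139 CPM with CITCO and 563 and 545 CPM with DMSO, so that both drugs stood at about the same height over DMSO (PB minus CITCO 0.014, 95% interval -0.057 to 0.085, adjusted p = 0.871). GPX2, a glutathione peroxidase, had 28.5 and 30.1 CPM with PB, against 26.4 and 24.8 CPM with CITCO and 7.36 and 7.95 CPM with DMSO (log2 0.19, adjusted p = 0.086). AKR1C2 had 1611 and 1573 CPM with PB and 1575 and 1513 CPM with CITCO (log2 0.044, adjusted p = 0.505). Of 11 gluconeogenesis and fasting genes, 3 rose and 3 fell, and G6PC, which releases glucose, had 62.7 and 63 CPM with PB, against 60.1 and 62.4 CPM with CITCO and 77.4 and 77.8 CPM with DMSO (log2 0.035, adjusted p = 0.738). Of 14 lipogenesis genes 2 rose, of 14 p53 targets 3 fell, and of 12 NF-kB and chemokine genes 2 fell, against 2.65% of all loci higher and 3.63% lower. These small counts rested on single libraries: without PB replicate 1, PB replicate 2, CITCO replicate 1 and CITCO replicate 2 in turn, 1, 1, 0 and 0 NRF2 targets rose and 1, 1, 1 and 0 fell. In the same order, 1, 4, 2 and 1 fasting genes rose and 1, 2, 1 and 1 fell, 2, 2, 1 and 1 lipogenesis genes rose, 1, 4, 1 and 1 p53 targets fell, and 1, 0, 0 and 0 NF-kB genes fell. Among 23 ribosomal protein genes limma called 0, with 2 under an unadjusted p of 0.05; edgeR and DESeq2 on the recovered reads called 0 as well, while total scaling called 2 lower and leaving out PB replicate 2 called 1 higher and 1 lower.

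Beyond the genes already named, the largest falls were in genes of varied roles. ALPP, placental alkaline phosphatase, which is close in sequence to its relatives, had 13.9 and 15.1 CPM with PB, against 34.7 and 32.5 CPM with CITCO and 24.8 and 26.8 CPM with DMSO (log2 difference -1.19 ± 0.072 (SE), adjusted p = 2.06e-08), with CITCO above and PB below DMSO. C1QL1, a secreted C1q-like protein, had 9.54 and 12.4 CPM with PB, against 21.3 and 22.9 CPM with CITCO and 16.8 and 22.2 CPM with DMSO (log2 difference -0.99 ± 0.11 (SE), adjusted p = 2.93e-05). POSTN, the matrix protein periostin, had 7.14 and 7.32 CPM with PB, against 12.8 and 14.7 CPM with CITCO and 20.3 and 16.9 CPM with DMSO (log2 difference -0.88 ± 0.094 (SE), adjusted p = 1.58e-05), with PB lowest and DMSO highest. KRT6A, an epithelial keratin, had 7.91 and 8.39 CPM with PB, against 13.5 and 13.2 CPM with CITCO and 16.7 and 15.2 CPM with DMSO (log2 difference -0.68 ± 0.061 (SE), adjusted p = 1.86e-06), in the same order. RRAD, a small GTPase, DNAH5, a dynein of cilia, C1orf116 and AC068134.8 were also among the largest falls, at low levels, with log2 differences of -0.86, -0.71, -0.83 and -1.20. AXL, a receptor tyrosine kinase chosen after its values were seen, had 23.6 and 22.9 CPM with PB, against 35.4 and 35.8 CPM with CITCO and 34.4 and 36.9 CPM with DMSO (log2 difference -0.60 ± 0.054 (SE), adjusted p = 1.65e-06). Of the mesenchymal and matrix list, 2 of 9 fell and 1 rose, the rise being lost without any 1 of the 4 libraries and 1 of the falls without CITCO replicate 1. KDR, the VEGF receptor, had 81.8 and 79.98 CPM with PB and 102 and 99.8 CPM with CITCO (log2 difference -0.32 ± 0.051 (SE), adjusted p = 0.000698).

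Of the largest rises beside the P450 genes, ACOT12, a liver acyl-CoA thioesterase, had 9.03 and 8.36 CPM with PB, against 4.44 and 4.46 CPM with CITCO and 3.88 and 3.94 CPM with DMSO (log2 difference 0.89 ± 0.17 (SE), adjusted p = 0.00312). FGF14, a fibroblast growth factor homologue that stays within the cell, had 5.38 and 5.16 CPM with PB, against 2.73 and 3.14 CPM with CITCO and 4.3 and 4.15 CPM with DMSO (log2 difference 0.75 ± 0.12 (SE), adjusted p = 0.000649). DIO1, the liver deiodinase that activates thyroid hormone, chosen after its values were seen, had 38.7 and 41.2 CPM with PB, against 26.9 and 27 CPM with CITCO and 26.8 and 29.1 CPM with DMSO (log2 difference 0.56 ± 0.06 (SE), adjusted p = 1.75e-05). In ACOT12 and DIO1 the CITCO libraries lay near DMSO, with PB above both.

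In the cells labelled KO, which share no library with the WT comparison, PB and CITCO differed at 865 of 15792 loci (5.48%), with 563 higher (3.57%) and 302 lower (1.91%); with total scaling 388 were higher and 596 lower. Leaving out 1 of the 4 libraries gave 392 without PB replicate 1, 410 without PB replicate 2, 457 without CITCO replicate 1 and 428 without CITCO replicate 2. The genotypes also differed in cell markers: the hepatocyte markers summed to 137700 to 155200 CPM in WT libraries given PB or CITCO and to 54360 to 57030 CPM in those labelled KO, most of it ALB, while TTR had 422 to 473 CPM in WT and 405 to 446 CPM in KO. Biliary markers summed to 377 to 467 CPM in WT and 104 to 111 CPM in KO, mesenchymal markers to 88.3 to 93.4 CPM in WT and 139 to 157 CPM in KO, and endothelial markers to 81.8 to 103 CPM in WT and 63.4 to 83.9 CPM in KO; their part in the differences between genotypes was not tested. Of the 419 loci higher in WT cells, 198 (47.3%) were also called higher in the cells labelled KO, which is 35.2% of the 563, and 3 were called lower. Of the 573 loci lower in WT cells, 118 (20.6%) were also called lower there, which is 39.1% of the 302, and 5 were called higher. The difference of PB minus CITCO itself differed between the genotypes at 219 loci (1.39%), 62 with a higher value in WT cells (0.393%) and 157 with a lower value (0.994%). That count was 82 to 128 without 1 of 7 of the 8 libraries, with 82 without KO PB replicate 1, and 413 without WT PB replicate 2.

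CYP2B6 differed most between the genotypes in this respect. Its log2 difference was 0.05 in WT cells and 3.73 in cells labelled KO (adjusted p = 5.26e-18 there). In the latter it had 229.9 and 226 CPM with PB and 17.4 and 16.1 CPM with CITCO. With DMSO it had 10.2 and 8.95 CPM there, and CITCO minus DMSO was 0.78 (adjusted p = 4.15e-07). The WT minus KO difference was -3.68 ± 0.082 (SE, adjusted p = 2.75e-15). CYP2C8 had 276 and 279.6 CPM with PB and 46.5 and 47.7 CPM with CITCO in the cells labelled KO, and its WT minus KO difference was -1.90 (adjusted p = 4.46e-12). For CYP2A6 this difference was -1.30 (adjusted p = 9.35e-10) and for CYP3A7 -1.25 (adjusted p = 2.13e-06). All 11 P450 genes of the list were called higher with PB in the cells labelled KO, with a median of 1.87.

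CYP3A4, the gene with the largest difference in WT cells, differed to nearly the same degree in both genotypes. Its log2 difference was 2.27 in WT cells and 2.07 in cells labelled KO. In the latter it had 10410 and 10930 CPM with PB and 2546 and 2544 CPM with CITCO. With DMSO it had 1080 and 1101 CPM there, and CITCO minus DMSO was 1.22 (adjusted p = 1.76e-13). The WT minus KO difference of 0.20 (adjusted p = 0.045) lost its call without any 1 of the 8 libraries of both comparisons other than WT PB replicate 2 (adjusted p = 0.0738 to 0.300). AKR1B10 and GPX2, not called between the drugs in WT cells, were higher with PB in the cells labelled KO by 1.04 and 1.00, and the WT minus KO differences were -1.03 (adjusted p = 2.4e-10) and -0.81 (adjusted p = 3.83e-05). ABCB1, POR and ALAS1 also had larger differences there, with WT minus KO values of -0.75, -0.64 and -0.68 (adjusted p = 1.16e-06, 1.66e-05 and 3.6e-05).

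CYP1A1 had a log2 difference of -1.90 in WT cells and -3.98 in cells labelled KO, where it had 0.969 and 0.352 CPM with PB and 16.9 and 17.3 CPM with CITCO. The WT minus KO difference was 2.08 ± 0.31 (SE, adjusted p = 0.00145). That call was lost with a constant prior variance (adjusted p = 0.068). Both PB libraries labelled KO were below 1 CPM, so the size of this difference is uncertain. CYP4A11 and NR1I3 differed by -0.61 and 0.64 in WT cells and by -0.57 and 0.62 in the cells labelled KO, and the WT minus KO differences were -0.043 (adjusted p = 0.865) and 0.022 (adjusted p = 0.962). Of the 20 mitosis genes, limma called 0 in the cells labelled KO, with 3 under an unadjusted p of 0.05 and a median of -0.057; no other tool was run on those libraries. The WT minus KO difference was called in 4 of these 20 genes. For MKI67 this difference was -0.41 (adjusted p = 0.00306, and 0.0846 with a constant prior variance). For CA9 it was -0.40 (adjusted p = 0.00235, and 0.0928 with a constant prior variance). For IFI44L it was 1.28 (adjusted p = 0.00583), a call lost without WT CITCO replicate 1 (1.13, adjusted p = 0.0561).

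**Figure D5:**
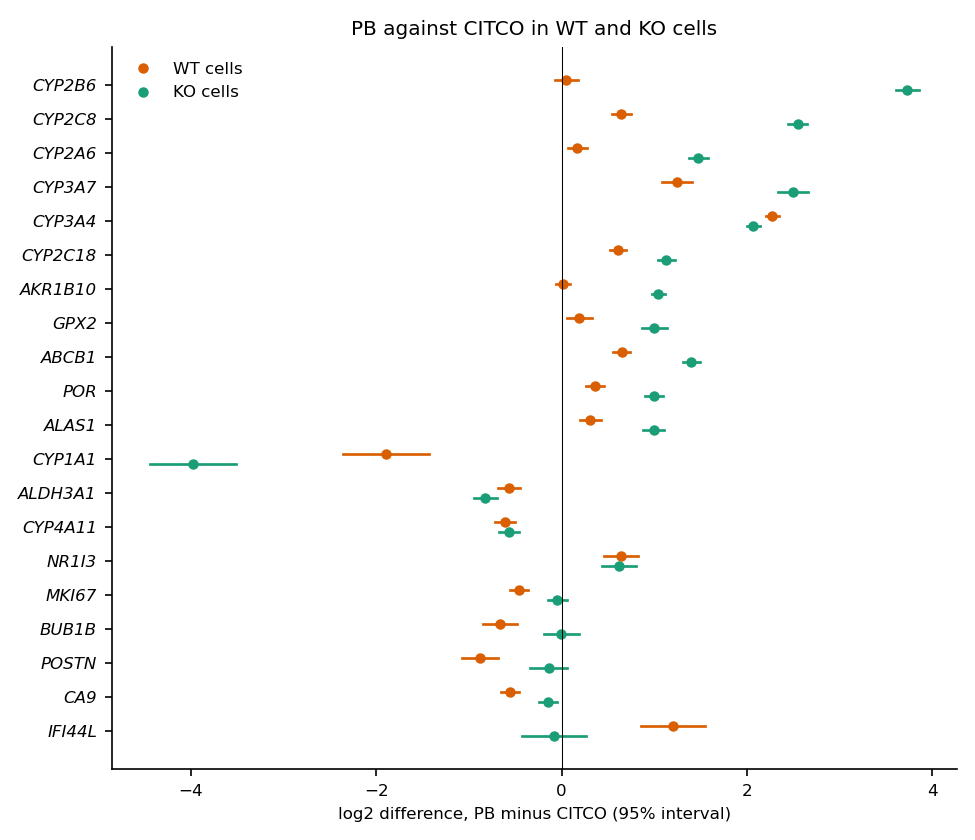
Log2 difference of PB minus CITCO with its 95% interval (x axis) for 20 genes (y axis) in WT cells and in cells labelled KO. CYP2B6 lies at 0.05 in WT and 3.73 in KO, CYP3A4 at 2.27 and 2.07, and MKI67 at -0.46 in WT and -0.048 in KO.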

How the data were processed

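RNA sequencing values of 12 libraries were deposited by the authors for 15822 loci, as CPM by the file's name. They are a normalized signal, since the deposited columns summed to 1.07 to 1.11 (WT) and 0.900 to 0.935 (KO) times the nominal CPM total. Per the submitters' processing notes, edgeR 2.12, Cuffdiff 2.1.1, Cufflinks 2.1.1, Bowtie 1.0.0 and TopHat2 2.0.10 were used in unstated roles. Those notes list GRCh38 as well as GRCh37, so no coordinates of the deposited loci are given. The promoter coordinates are those of RefSeq (GRCh38.p14). The deposited tables of comparisons were not used. All WT values were whole multiples of 1 read within 0.01 reads, and these reads served the count models.

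The plan assumed plain CPM or counts; the signal was tested as planned for normalized values, with limma 3.58.1 (R 4.3.3) on log2(CPM + 0.5), an expression trend and all 12 libraries in 1 fit of 6 group means (6 residual degrees of freedom). Adjusted p-values are limma's, Benjamini-Hochberg over 15792 loci, called under 0.05. Fold ratios are of mean CPM; log2 differences with the pseudocount understate those of low genes. edgeR 4.0.16 and DESeq2 1.42.0 on the recovered WT reads were alternatives. The tools limma, edgeR and DESeq2 were each run on simulated reads with a single spread setting for all loci and groups. That run does not show how well the calls hold for these duplicates.

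The comparison, the 29 gene lists and the genes were chosen with earlier results of these data known. Named genes were up to 12 called loci per direction with the largest difference and at least 5 CPM, fixed drug-metabolism genes, up to 4 called members per list and up to 8 loci with the largest WT minus KO difference; other list members, AXL and DIO1 were chosen after their values were seen. Some genes are not reported here. Lists are described by counts and medians, without a test of the list. Duplicates differed by more than sampling noise (chi-square per degree of freedom 4.15 to 10.4) and were counted as separate samples. Promoter windows searched are the 250 bases before each start (RefSeq, GRCh38.p14). Of 15741 symbols, 9951 matched.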

Additional observations from a re-analysis of the deposited data

Results flagged for a closer look

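For 40 named genes the difference of PB minus CITCO was not the same in WT cells as in cells labelled KO, by the interaction test of limma at an adjusted p under 0.05; values are log2, WT minus KO. Drug oxidation genes and their electron and heme supply had these values of WT minus KO -3.68 for CYP2B6, -1.71 for CYP2B7P, -1.90 for CYP2C8, -1.30 for CYP2A6, -1.14 for CYP2A13, -1.25 for CYP3A7, 0.20 for CYP3A4, 2.08 for CYP1A1, -0.64 for POR, -0.34 for CYB5A and -0.68 for ALAS1. For conjugation and transport they were -0.30 for UGT1A1, -0.43 for UGT2B4, -0.30 for GSTA1, -0.75 for ABCB1, -0.25 for ABCC2 and -0.64 for SLC27A2. For NRF2-linked reductases and peroxidases they were -1.03 for AKR1B10, -0.81 for GPX2 and -0.28 for TXNRD1. For bile acid, sterol, glucose and fasting genes they were -0.69 for AKR1D1, 0.36 for HMGCS1, 0.66 for G6PC, 0.42 for PDK4, -0.65 for ANGPTL4 and -0.44 for AGXT. For dividing-cell genes they were -0.41 for MKI67, -0.66 for BUB1B and -0.43 for KIF20A. For interferon, inflammatory and plasma protein genes they were 1.28 for IFI44L, 0.63 for OAS2, -0.55 for ICAM1, -0.38 for CRP, -0.26 for HRG and -0.26 for SERPINC1. For the remaining genes they were -0.40 for CA9, -0.74 for POSTN, -0.74 for C1QL1, -1.54 for FOXN4 and -1.39 for GAL3ST1. Of these 40 calls, 15 were lost when 1 library was left out in turn, those of ABCC2, AGXT, BUB1B, C1QL1, CYP2A13, CYP3A4, GSTA1, HMGCS1, HRG, IFI44L, KIF20A, OAS2, PDK4, POSTN and SERPINC1. With a constant prior variance the calls of AKR1D1, CYP1A1, UGT1A1, UGT2B4, CYB5A, SLC27A2, TXNRD1, MKI67, CA9 and CRP were lost as well. FOXN4 and GAL3ST1 were below 7 CPM in each WT library given PB or CITCO.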

How the results depend on the processing

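Pseudocounts of 0.1 and 2, no filter on low values and a stricter filter kept the counts of all 3 comparisons within 1.5 times. A constant prior variance in place of the trend gave 434 loci for PB minus CITCO in WT, 452 in KO and 44 for their difference. A fit of only the libraries compared gave 437 (WT) and 1798 (KO), a fit of the 6 WT libraries 380, edgeR 500 and DESeq2 632. Leaving out 1 library gave 377 to 1215 in WT, 392 to 457 in KO and 82 to 413 for the difference; a lone sample is then assumed to vary like the other groups. Duplicate differences of same-numbered libraries given PB and CITCO correlated at -7.84e-05 in WT and 0.0742 in KO across loci. Over all 15 pairs of groups the values ran from -0.078 to 0.29, the highest for WT PB and WT DMSO, so the numbers were not taken as pairing the samples; with the replicate number as a block the counts were 951, 827 and 202. Reversed signs occurred only in genes not called: AKR1B10 (-0.034 with total scaling, and -0.011 to 0.039 without 1 library compared), G6PC (-0.012 with total scaling), RXRA (-0.12 to 0.019 without 1 library) and GAL3ST1 (-0.32 to 0.14 without 1 library). Of 112 called named genes, 61 kept their call under every alternative, 51 lost it under at least 1 and 0 reversed. The cause of these changes was not tested. With 2 libraries a group, calls of small differences rest on the spread borrowed from all 12 libraries.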
